A study of Mus musculus with 40 samples.

Results

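The subject is a set of 7 mouse genes that mark ciliated cells: Foxj1, Mcidas, Dynlrb2, Dnah5, Rsph1, Tekt1 and Tppp3. They were taken by symbol from 5 tables of transcript abundance that share 55260 gene symbols, and all 7 were listed in every table. The tables hold 40 libraries of branching lung organoids, grown from embryonic lung tip epithelium, and of the tips themselves. Abundance was given in TPM, each gene's share of the transcripts of a library after correction for transcript length.

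The libraries of most interest are 5 lung organoid libraries labelled 2C+F10, 2C+MTG, 2C+VC, ALL and 2C, with 1 library each, so differences among them have no replicate check and carry no p-value. The labels do not define 2C, F10, MTG, VC or ALL. They are used as names, and reading a plus sign as an addition to 2C is an assumption. The other 35 libraries were ALL-FGF10, ALL-MTG, ALL-VC and ALL (2 numbered replicates each), organoids from E9.5 to E14 tips after 11 to 32 days (n = 10), tips of E10.5 to E13.5 (n = 4), 4 libraries labelled LO, and 8 cut pieces with 1 intact organoid. Strain, genotype and the number of animals or cultures behind a library were not given in the sources used here, so the p-values below reflect the scatter of these libraries, which may be technical. Depth is unknown because TPM keeps none. Each library summed to between 997840 and 999209 TPM and listed 13036 to 14418 genes at 1 TPM or more. Each of the 4 general lung epithelium genes, Nkx2-1, Epcam, Cdh1 and Foxa2, was at 1 TPM or more in all 5 libraries of the 2C set.

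A multiciliated cell carries many motile cilia on its airway-facing surface, whose beating moves mucus out of the lung. During its formation, multicilin (Mcidas) and its relative geminin coiled-coil protein (Gmnc) act with E2f4 and E2f5 to switch on Myb, Ccno, Deup1 and other genes needed to make many basal bodies. The transcription factor Foxj1, with RFX factors, then drives the genes of the moving axoneme: dynein motor arms, radial spokes, the central pair and tektins. Primary, non-motile cilia share the transport machinery with motile cilia, but not these parts.

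Promoters of 4 of the 7 genes, Mcidas, Dynlrb2, Dnah5 and Tekt1, were matched in the RefSeq promoter table for GRCm38.p6. Those of 3 of them are shown beside 2 regulators, because these genes carry letters of the RFX motif and because Mcidas and Ccno lie next to each other. Each run gives the 250 bases before a start listed by RefSeq, 5′ to 3′ on the strand of the gene. The run shown for Tekt1 lies inside the span of that gene given below. Capitals mark matches to the short RFX motif GTTGCC or to the full X-box (GTNNCC, then any 2 bases, then GGNNAC), on either strand.
Mcidas, chr13:112993618-112993867, plus strand: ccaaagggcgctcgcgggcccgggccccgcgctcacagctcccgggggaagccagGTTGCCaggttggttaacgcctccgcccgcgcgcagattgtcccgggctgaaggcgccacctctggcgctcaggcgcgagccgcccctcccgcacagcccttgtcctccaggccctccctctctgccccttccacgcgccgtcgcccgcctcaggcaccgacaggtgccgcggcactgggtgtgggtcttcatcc
Ccno, chr13:112987552-112987801, plus strand: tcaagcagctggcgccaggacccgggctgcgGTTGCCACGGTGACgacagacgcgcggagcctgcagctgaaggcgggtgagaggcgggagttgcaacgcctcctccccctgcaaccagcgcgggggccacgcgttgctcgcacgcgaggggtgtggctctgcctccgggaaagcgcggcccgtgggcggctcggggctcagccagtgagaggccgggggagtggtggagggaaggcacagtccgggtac
Deup1, chr9:15627847-15628096, minus strand: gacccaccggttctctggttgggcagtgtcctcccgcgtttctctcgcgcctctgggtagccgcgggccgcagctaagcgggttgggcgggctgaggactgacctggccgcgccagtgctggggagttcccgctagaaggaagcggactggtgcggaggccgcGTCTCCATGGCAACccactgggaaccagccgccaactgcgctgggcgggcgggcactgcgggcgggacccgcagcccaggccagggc
Dynlrb2, chr8:116504765-116505014, plus strand: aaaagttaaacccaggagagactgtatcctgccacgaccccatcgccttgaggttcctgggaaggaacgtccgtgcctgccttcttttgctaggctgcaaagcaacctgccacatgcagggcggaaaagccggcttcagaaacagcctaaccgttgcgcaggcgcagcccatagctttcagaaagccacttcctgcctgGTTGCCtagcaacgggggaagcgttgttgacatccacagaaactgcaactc
Tekt1, chr11:72361883-72362132, minus strand: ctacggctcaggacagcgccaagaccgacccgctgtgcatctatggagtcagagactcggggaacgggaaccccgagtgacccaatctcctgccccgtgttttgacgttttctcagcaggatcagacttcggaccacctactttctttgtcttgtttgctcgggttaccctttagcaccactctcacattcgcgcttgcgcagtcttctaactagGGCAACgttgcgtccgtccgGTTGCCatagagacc

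The short motif occurred in 1 window each of Mcidas, Dynlrb2 and Tekt1, which is 3 of 5 windows of the 7 genes. It was absent from the window of Dnah5 and from another window of Tekt1. Another window of Deup1 held no match either, and only windows with a match were printed. Of the windows of genes on the cilia lists, 42 of 95 (44.2%) held it, against 4111 of all 32851 promoter windows of 300 bases, 250 before and 50 after a start. For the full X-box, with which the short motif can overlap as it does in Ccno and Deup1, the share was 13 of 95 windows (13.7%) on the lists, against 1.88% of all windows and 0 of 5 windows of the 7 genes. The forkhead motif GTAAACA stood in 4.21% of the listed windows and 3.65% of all windows. These are matches of letters and say nothing of binding.

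Of the 7 genes, 6 reached their highest level of the 2C set in 2C+F10 or 2C+VC and their lowest in 2C+MTG or ALL. Mcidas had 5.35 TPM in 2C+F10, 0 in 2C+MTG, 0.56 in 2C+VC, 0.32 in ALL and 3.46 in 2C. Foxj1 had 19.62 TPM in 2C+F10, 0 in 2C+MTG, 13.72 in 2C+VC, 0.12 in ALL and 10.05 in 2C. For both transcription regulators, the libraries 2C+MTG and ALL thus lay at or near 0, while 2C+VC was close to 2C for Foxj1 and lower than it for Mcidas. These are bulk samples, in which fewer cells of a type and less RNA per cell cannot be told apart.

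Dynlrb2, a dynein light chain that is abundant in ciliated cells, had 52.21 TPM in 2C+F10, 0 in 2C+MTG, 47.78 in 2C+VC, 2.10 in ALL and 15.59 in 2C. The radial spoke head gene Rsph1 had 21.76 TPM in 2C+F10, 0.72 in 2C+MTG, 17.58 in 2C+VC, 0.42 in ALL and 14.36 in 2C. Tekt1, a filament protein of the axoneme's microtubules, had 8.92 TPM in 2C+F10, 0.38 in 2C+MTG, 7.79 in 2C+VC, 0.23 in ALL and 2.65 in 2C. All 3 structural genes were therefore at or under 2.10 TPM in 2C+MTG and ALL and at or above 2.65 TPM in the other libraries.

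Dnah5, a heavy chain of the outer dynein arm, stayed low throughout, with 0.54 TPM in 2C+F10, 0 in 2C+MTG, 0.94 in 2C+VC, 0 in ALL and 0.16 in 2C. Its order of levels resembled that of the others, but no library reached 1 TPM. Tppp3, a tubulin polymerization promoting protein, did not follow them. It had 66.65 TPM in 2C+F10, 56.62 in 2C+MTG, 121.46 in 2C+VC, 69.74 in ALL and 42.02 in 2C, so it was higher in 2C+MTG and ALL than in 2C. The span of Rsph1, introns included, overlaps that of an antisense gene over 2960 bases. Overlap of their exons was not counted, and the use of strand in counting is not given in the sources used here. Whether reads of the pair were told apart is thus unknown.

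**Figure D1:**
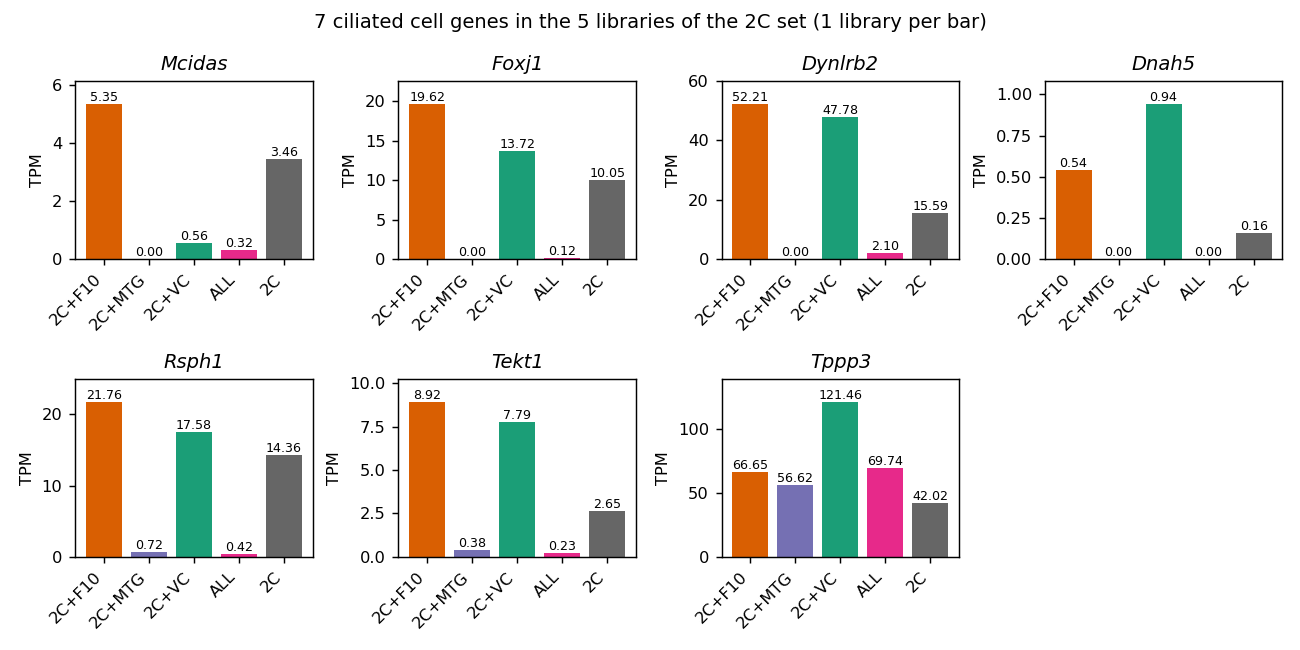
TPM of the 7 ciliated cell genes (y axis, linear, starting at 0) in 2C+F10, 2C+MTG, 2C+VC, ALL and 2C (x axis), with 1 library per bar and the value printed above it. All but Tppp3 sit at or near 0 in 2C+MTG and ALL, and Mcidas is at 0.56 TPM in 2C+VC, where Foxj1 is at 13.72 TPM.

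Within a library, TPM also orders the genes, since it is corrected for length. The order in 2C+F10 was Tppp3, Dynlrb2, Rsph1, Foxj1, Tekt1, Mcidas and Dnah5. In 2C+VC it was the same apart from Mcidas, which stood behind Dnah5, and in 2C it differed by Mcidas standing ahead of Tekt1. With 1 library each, neighbours in these orders cannot be separated from library error.

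Outside this set, the 6 genes other than Tppp3 were low in nearly every library. Over the other 35 libraries, Foxj1 had a median of 0.08 TPM and a highest value of 2.10 TPM, in ALL-MTG replicate 1. Mcidas had a median of 0.19 TPM and a highest value of 1.25 TPM, in the organoid from E11.5 after 11 days. Dnah5 had a median of 0 and a highest value of 0.12 TPM. None of the 3 therefore reached its 2C+F10 level in any of them.

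Rsph1 had a median of 0.84 TPM and a highest value of 3.48 TPM, and Dynlrb2 a median of 1.33 TPM and a highest value of 12.06 TPM, both highest in the piece labelled down-half-left. Tekt1 had a median of 0.15 TPM and a highest value of 11.33 TPM, in the E11.5 tip, which is above its 8.92 TPM in 2C+F10. Tppp3 was at 16.59 TPM or more in all 35, with a median of 51.46 TPM. The tables were deposited separately, so levels across them rest on TPM alone.

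**Figure D2:**
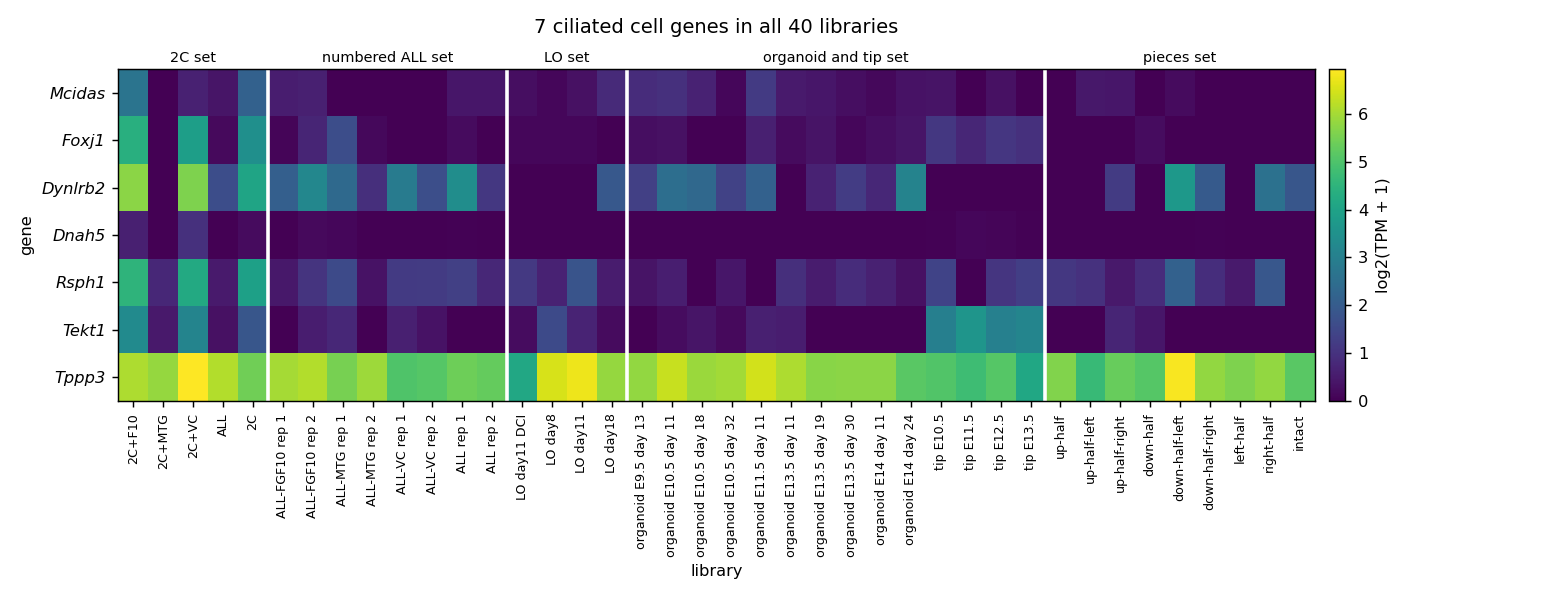
Heat map of log2(TPM + 1) of the 7 genes (rows) in all 40 libraries (columns), grouped by table, with the 2C set at the left. Foxj1 is brightest in 2C+F10, 2C+VC and 2C, Tppp3 is bright throughout (16.59 TPM or more outside the 2C set), and Tekt1 is bright again in the 4 tips.

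To place these levels, each gene at 1 TPM or more in a library of the 2C set was compared with its highest value over the other 35 libraries. In 2C+F10, Foxj1, Mcidas, Rsph1 and Dynlrb2 exceeded all 35, as did 7.63% of all 13983 genes considered. In 2C+VC, it was Foxj1, Rsph1, Dynlrb2 and Tppp3, against 4.13% of 14002 genes. In 2C, it was Foxj1, Mcidas, Rsph1 and Dynlrb2, against 6.26% of 13977 genes. In 2C+MTG only Tppp3 of the 7 was at 1 TPM or more, and in ALL only Tppp3 and Dynlrb2. None of these exceeded all 35 in 2C+MTG or ALL, where the share of all genes was 2.03% and 2.06%. The other genes of the 7 were under 1 TPM there and could not be counted.

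The same count was made over 84 further cilia genes in 7 lists, which cover regulators, the outer and inner dynein arms, dynein arm assembly, radial spokes and central pair, tektins and other inner microtubule proteins, and other ciliated cell markers. In 2C+F10, 49 of the 72 at 1 TPM or more exceeded all 35 other libraries, in 2C+VC 50 of 73, and in 2C 26 of 53. Over all genes at that level, the share was 7.63% in 2C+F10, 4.13% in 2C+VC and 6.26% in 2C. In 2C+MTG, 1 of 21 exceeded them, and in ALL 0 of 25, beside 2.03% and 2.06% of all genes. The number of the 84 at 1 TPM or more was 72 in 2C+F10, 21 in 2C+MTG, 73 in 2C+VC, 25 in ALL and 53 in 2C, and it ran from 18 to 34 in the other 35 libraries, with a median of 25. A further list of 17 genes for intraflagellar transport and the BBSome, which primary cilia also use, was at 1 TPM or more in full in all 5 libraries, and at most 1 of its genes exceeded the other 35.

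**Figure D3:**
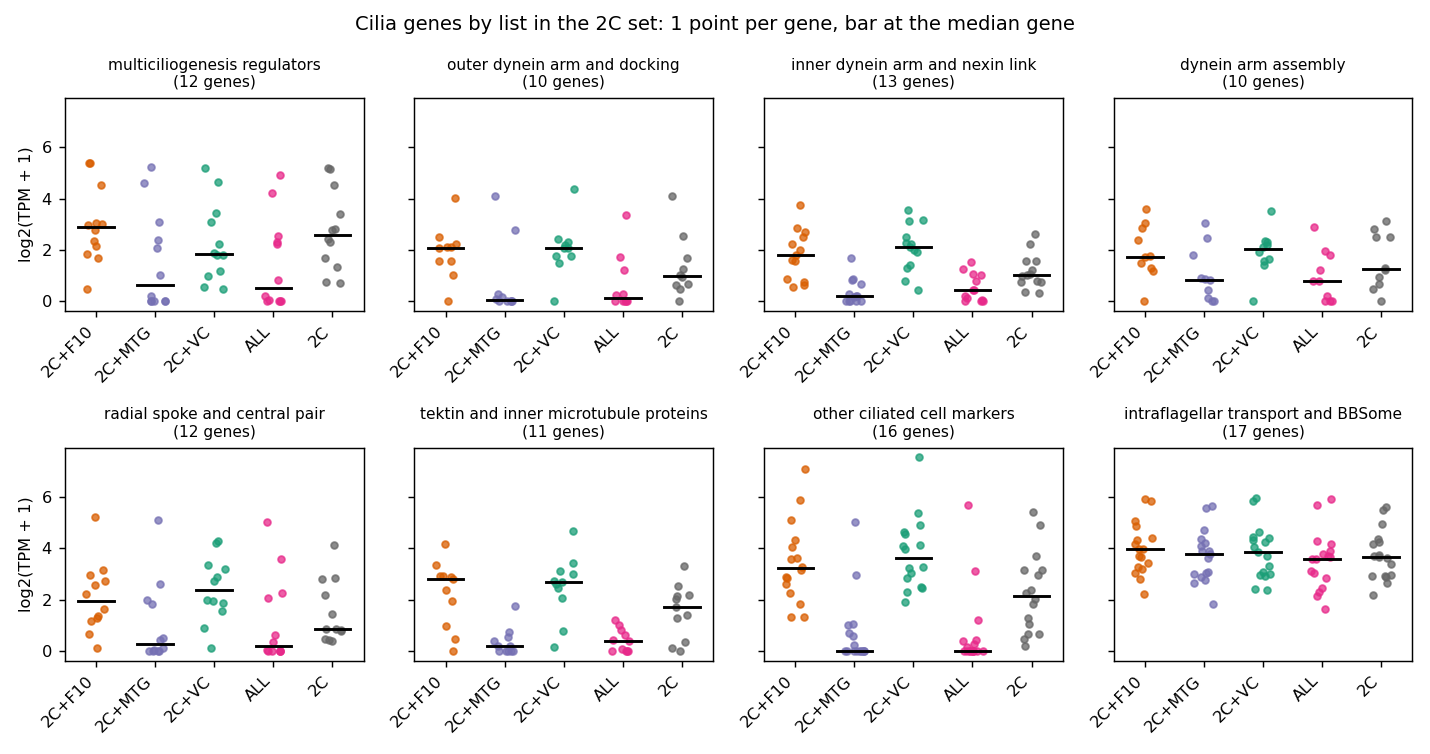
log2(TPM + 1) of each gene (points) on 8 cilia lists in 2C+F10, 2C+MTG, 2C+VC, ALL and 2C, with a bar at the median gene. In 7 lists the points of 2C+MTG and ALL gather near 0, while intraflagellar transport and BBSome genes stay at similar heights in all 5 libraries.

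2C+F10 was compared with 2C first. Counted were genes with a difference in log2(TPM + 1) of 1 or more and at least 5 TPM in the higher library, and genes with at least 5 TPM in either library are called eligible. Tekt1 (8.92 against 2.65 TPM, log2 difference 1.44) and Dynlrb2 (52.21 against 15.59 TPM, log2 difference 1.68) were higher in 2C+F10 by this rule, where 3.08% of 10896 eligible genes were higher and 5.90% differed either way. Foxj1 was 1.95 times and Rsph1 1.52 times its 2C level, under the limit.

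Among the 101 listed cilia genes, 54 were eligible, 12 were higher in 2C+F10 and 0 lower. The other ciliated markers gave 7 of them (of 16), among them Ccdc153 (6.26 TPM in 2C+F10 and 1.06 in 2C), the adenylate kinase gene Ak7 (6.33 and 1.45 TPM), Sec14l3 (135.30 and 41.45 TPM) and Fam183b (32.94 and 12.05 TPM). Sec14l3 was not particular to the 2C set, with a median of 30.71 TPM over the other 35 libraries. Its highest value among those was 164.59 TPM in LO_day11_DCI, where Foxj1 was at 0.08 TPM. The inner arm genes Dnali1 and Ccdc39, the inner microtubule genes Mns1 and Cfap52, and the radial spoke gene Rsph3a were also higher in 2C+F10. Of the 12 regulators, 0 were past the rule: Ccno, a cyclin relative needed to make many centrioles, had 41.28 TPM in 2C+F10 and 34.33 in 2C, and Myb had 6.99 and 5.83 TPM. Mesenchymal markers moved in the same library: Col3a1, Col1a1 and Col1a2, 3 of 5 on that list, were higher, and the list summed to 94.1 TPM in 2C+F10, against 3.48 TPM in 2C. Their part in these differences was not tested.

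In 2C+MTG, 3 of the 7 genes were lower than in 2C. Foxj1 and Dynlrb2 were listed at 0 in 2C+MTG, against 10.05 and 15.59 TPM in 2C, and Rsph1 had 0.72 TPM against 14.36 TPM. By the rule, 4.93% of 10791 eligible genes were lower, 2.59% were higher and 7.52% differed either way. Tppp3, the remaining eligible gene, was at 56.62 TPM in 2C+MTG and 42.02 TPM in 2C. Mcidas (0 against 3.46 TPM) and Tekt1 (0.38 against 2.65 TPM) did not reach 5 TPM in either library. With the limit at 1 TPM in the higher library they were also counted as lower, where 7.63% of 14666 genes were. 

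Of the 101 listed genes, 37 were eligible in this comparison, 9 were lower in 2C+MTG and 0 higher. Of these, 3 were regulators: Ccno (3.18 TPM in 2C+MTG and 34.33 in 2C), Cdc20b (0 and 5.99 TPM) and Myb (1.06 and 5.83 TPM). The 4 other ciliated markers were Lrrc23, listed at 0 against 29.06 TPM, Fam183b, at 0 against 12.05 TPM, Meig1, at 0 against 6.78 TPM, and 1110017D15Rik, at 0.52 against 7.89 TPM. Cfap126, a protein of the inner microtubule wall, was listed at 0 against 9.05 TPM, and the inner arm gene Ccdc39 was at 0.16 against 5.20 TPM. The transport genes gave 0 of 16 eligible, with a median log2 difference of 0.03, against -0.13 over all eligible genes.

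Some cilia genes that 2C expressed were listed at 0. Of 10433 genes at 5 TPM or more in 2C, 144 (1.38%) were listed at 0 in 2C+MTG, whereas among 40 cilia genes at that level 7 were, namely Foxj1, Dynlrb2, Cdc20b, Cfap126, Fam183b, Lrrc23 and Meig1. In ALL, 105 genes (1.01%) and 3 of the 40 were at 0. In 2C+F10 and 2C+VC, 0 of the 40 were at 0, as against 115 and 98 genes in all. No test was made of these shares.

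ALL was set against 2C in the same way. Foxj1 (0.12 against 10.05 TPM), Rsph1 (0.42 against 14.36 TPM) and Dynlrb2 (2.10 against 15.59 TPM) were lower in ALL, by log2 differences of -3.30, -3.44 and -2.42. Tppp3 was the only other eligible gene of the 7 and was not past the rule. Of 10916 eligible genes, 7.44% were lower, 4.89% were higher and 12.3% differed either way. Mcidas and Tekt1 were lower as well with the 1 TPM limit, which 10.1% of 14789 genes were. Of the 101 listed genes, 36 were eligible, 11 were lower and 0 higher. The regulators Cdc20b, Ccno (4.81 TPM in ALL and 34.33 in 2C), Myb (0.78 and 5.83 TPM) and Rfx3 (3.68 and 9.54 TPM) were among the lower genes, as were Lrrc23 (0.22 and 29.06 TPM) and Cfap126 (0.35 and 9.05 TPM).

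Between 2C+VC and 2C, most listed genes past the rule were higher in 2C+VC. Tppp3 (121.46 against 42.02 TPM, log2 difference 1.51), Tekt1 (7.79 against 2.65 TPM, 1.27) and Dynlrb2 (47.78 against 15.59 TPM, 1.56) were higher in 2C+VC. Of the 7, Foxj1 and Rsph1 were also eligible but not past the rule, and Mcidas and Dnah5 were not eligible. Of 11047 eligible genes, 5.81% were higher, 420 genes were lower and 9.61% differed either way. Foxj1 was 1.37 times and Rsph1 1.22 times its 2C level. Mcidas was at 0.56 TPM in 2C+VC and 3.46 TPM in 2C, so 2C was 6.18 times higher, and it was counted as lower with the 1 TPM limit, where 5.79% of 15037 genes were.

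Among the listed genes, 53 of 101 were eligible, 22 were higher in 2C+VC and 2 lower. The lower count is near the share over all eligible genes, where 420 of 11047 were lower. The other ciliated markers were higher in 10 of 16, led by Tmem212, a transmembrane protein of ciliated cells (14.62 TPM in 2C+VC and 0.60 in 2C), then Ccdc153 (8.46 and 1.06 TPM), Sec14l3 (185.15 and 41.45 TPM) and Pifo (16.24 and 3.81 TPM). Tektin and inner microtubule genes were higher in 6 of 11, among them Tekt4, Cfap126, Mns1 and Enkur. Radial spoke and central pair genes were higher in 4 of 12, namely Rsph10b (5.66 and 0.83 TPM), Rsph4a (6.38 and 1.72 TPM), Rsph9 (17.66 and 6.08 TPM) and Dnajb13 (8.14 and 3.56 TPM). The inner arm genes Drc1 and Dnali1 were higher too.

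Both lower genes were regulators, Ccno with 9.73 TPM in 2C+VC and 34.33 TPM in 2C, and Cdc20b with 0.97 and 5.99 TPM. They are 2 of 12 on that list. No other regulator was past the rule, among them the eligible Myb and Rfx3 (5.83 and 9.54 TPM in 2C). Deup1, which builds the deuterosome on which new centrioles form, had 6.91 TPM in 2C+F10, 0 in 2C+MTG, 2.47 in 2C+VC, 0 in ALL and 4.02 in 2C. Foxn4 had 2.62, 0, 0.49, 0 and 1.54 TPM in the same libraries, and Sntn, which encodes sentan of the ciliary tip, had 1.49, 0, 3.98, 0 and 0.15 TPM. Deup1, Foxn4 and Sntn lie outside the rule for named genes, and their values were known when they were picked. All 4 comparisons share the single 2C library, so they are not independent of each other.

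**Figure D4:**
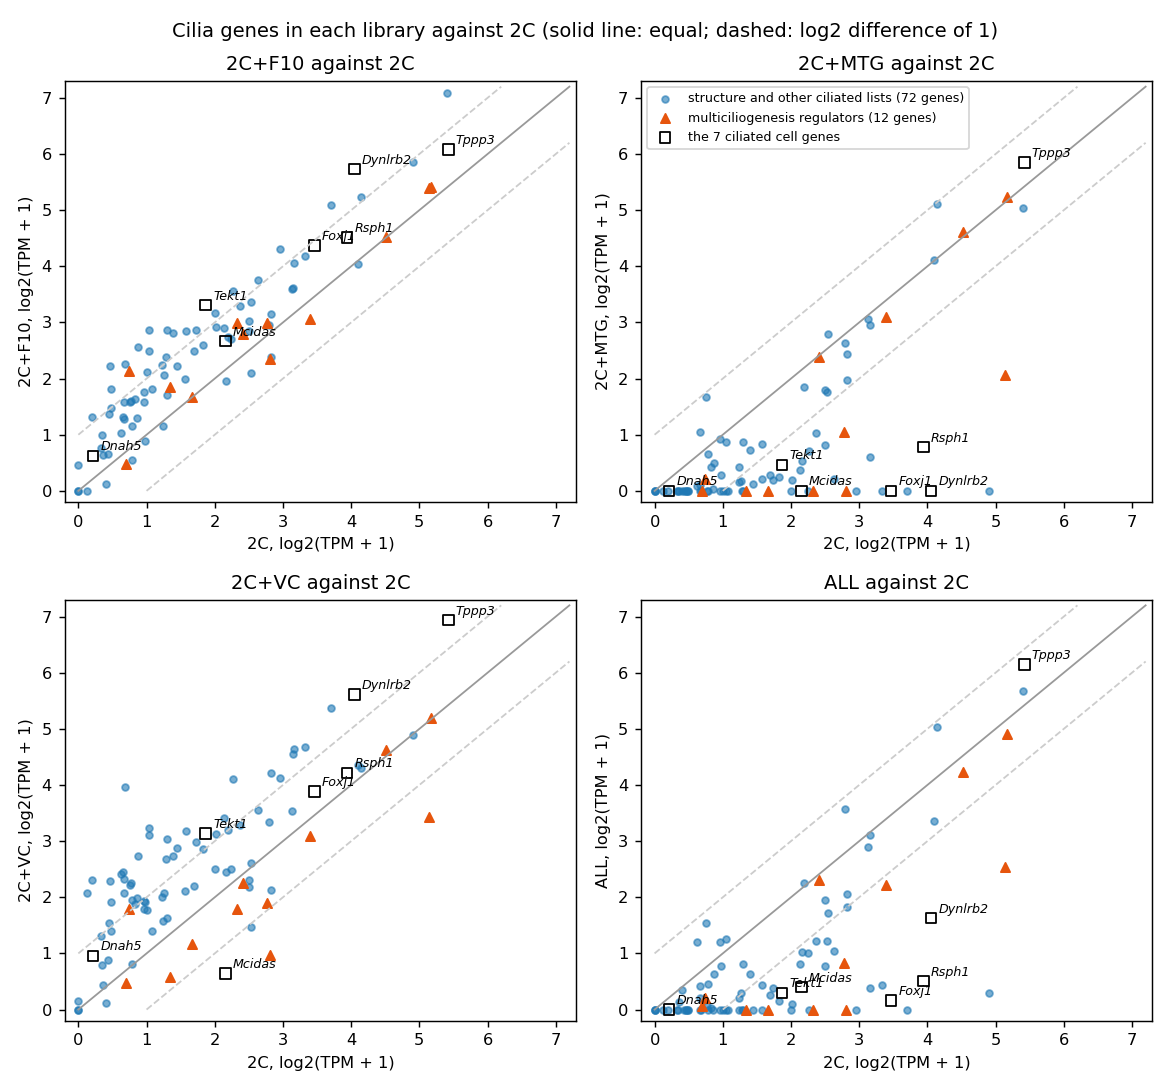
log2(TPM + 1) of cilia genes in 2C+F10, 2C+MTG, 2C+VC and ALL (y axes) against 2C (x axes): 72 structural and other ciliated genes (circles), 12 regulators (triangles) and the 7 ciliated cell genes (labelled squares), with dashed lines at a log2 difference of 1. In 2C+VC most circles lie above the solid line of equality and Mcidas lies below it, and in 2C+MTG and ALL many points lie on or near the x axis.

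Mcidas, Ccno and Cdc20b, each lower in 2C+VC (Mcidas with the 1 TPM limit), are neighbours on chromosome 13. By GENCODE M21 on GRCm38, Ccno spans 112987802 to 112990777, Mcidas 112993845 to 113000394 and Cdc20b 113035111 to 113091195, all on the plus strand. The gaps are 3067 bases between Ccno and Mcidas and 34716 bases between Mcidas and Cdc20b. Foxj1 lies on chromosome 11 (116330704 to 116335399) with Tekt1 (72344722 to 72362442), Dnah5 on chromosome 15 (28203752 to 28472052) and Rsph1 on chromosome 17 (31255019 to 31277383). Dynlrb2 (116504974 to 116515915) and Tppp3 (105467493 to 105471526) lie on chromosome 8. These are whole-gene spans, exons and introns together.

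Markers of other airway and alveolar cells differed in the same libraries. Secretory club cell markers summed to 758.5 TPM in 2C+F10, 6.45 in 2C+MTG, 4651 in 2C+VC, 26.4 in ALL and 158.1 in 2C, and Scgb1a1, the defining secretoglobin, had 371.45, 0.53, 4155.92, 7.62 and 18.97 TPM. Of the 7 club markers, 3 were higher in 2C+F10 and 2 in 2C+VC, and 4 were lower in 2C+MTG and 3 in ALL, relative to 2C. The proximal airway factor Sox2 had 4.70 TPM in 2C+F10, 0 in 2C+MTG, 2.14 in 2C+VC, 0 in ALL and 3.53 in 2C. Club markers and ciliated genes were thus low in the same libraries of the 2C set. Outside it they did not always go together: in LO_day11_DCI, Scgb1a1 was at 413.29 TPM and Foxj1 at 0.08 TPM.

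Of 4 distal tip progenitor markers, Etv4 and Id2 were higher in 2C+MTG than in 2C, Etv4 in 2C+VC, and Etv4, Id2 and Sox9 in ALL, while Sox9 was lower in 2C+F10. Etv4 had 2.14 TPM in 2C+F10, 15.19 in 2C+MTG, 10.64 in 2C+VC, 25.50 in ALL and 2.69 in 2C. Of 8 alveolar type 2 markers, 3 were higher in 2C+F10, 1 was higher and 3 were lower in 2C+MTG, 7 were higher in 2C+VC and 6 in ALL. Over all eligible genes the share that was higher was 3.08% in 2C+F10, 2.59% in 2C+MTG, 5.81% in 2C+VC and 4.89% in ALL. The 6 basal cell markers summed to 2.04 TPM in 2C+F10, 0.50 in 2C+MTG, 0.39 in 2C+VC, 0.03 in ALL and 1.38 in 2C. Of these, Krt5, Krt14 and Ngfr were listed at 0 in all 5 libraries, and Krt15 alone reached 1 TPM, in 2C+F10 and 2C. The part that the mixture of cells plays in the ciliated gene levels was not tested.

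**Figure D5:**
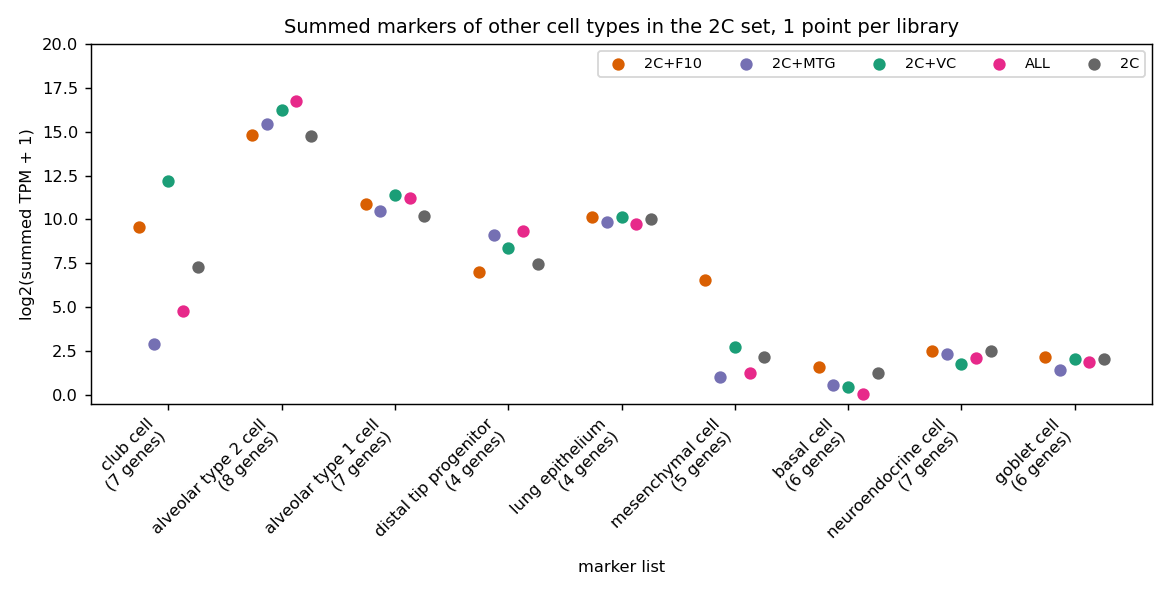
log2(summed TPM + 1) of 9 marker lists of other lung cells (x axis) in 2C+F10, 2C+MTG, 2C+VC, ALL and 2C, 1 point per library. Club cell sums span 6.45 TPM in 2C+MTG to 4651 TPM in 2C+VC, mesenchymal sums are highest in 2C+F10 at 94.1 TPM, and lung epithelium sums lie close together.

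The numbered cultures, which have replicates, did not reach the 2C+F10, 2C+VC or 2C levels of the ciliated cell genes other than Tppp3. In ALL-FGF10, ALL-MTG and ALL-VC compared with ALL, only Rsph1, Dynlrb2 and Tppp3 passed the filter of 1 TPM in at least 2 of the 8 libraries, and by limma with Benjamini-Hochberg adjustment 0 of 3 were called at adjusted p under 0.05 in any of the 3 comparisons. Over all 14802 genes, 1.83% were called for ALL-FGF10, 0.513% for ALL-MTG and 0.804% for ALL-VC. At an unadjusted limma p under 0.05, Tppp3 alone of the 3 passed, and only for ALL-FGF10, where 2705 of all 14802 genes passed.

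Tppp3 had 63.20 and 69.45 TPM in ALL-FGF10, against 41.40 and 38.49 TPM in ALL (log2 difference 0.72 ± 0.18 SE, limma adjusted p = 0.108). The difference failed the correction. Dynlrb2 had 3.29 and 8.31 TPM in ALL-FGF10, 4.13 and 0.91 TPM in ALL-MTG, 6.35 and 2.17 TPM in ALL-VC, and 9.63 and 1.19 TPM in ALL, so replicates of a group differed by more than the groups did. Foxj1 had 0.06 and 0.66 TPM in ALL-FGF10, 2.10 and 0.11 TPM in ALL-MTG, 0 and 0 in ALL-VC, and 0.15 and 0 TPM in ALL. In ALL-MTG it was replicate 1 alone that reached 1 TPM. Of the 101 listed genes, 55 were tested and 0 were called in any of the 3 comparisons.

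Organoids were then compared with tips. Tekt1 was lower in organoids, with a lowest, median and highest value of 0, 0.07 and 0.53 TPM, against 7.01, 11.33, 7.10 and 7.85 TPM in the tips, in order of embryonic day (log2(TPM + 1) fell by 3.00 ± 0.18 SE, limma adjusted p = 2.56e-09, n = 10 and 4). Foxj1 was lower as well, at 0, 0.19 and 0.52 TPM in organoids (lowest, median, highest), against 1.18, 0.67, 1.12 and 0.96 TPM in tips (log2 difference -0.73 ± 0.15 SE, limma adjusted p = 0.000599). In this comparison 61.9% of all genes were called.

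Tppp3 was higher in organoids, at 34.65, 56.9 and 86.82 TPM (lowest, median, highest), against 32.33, 26.76, 33.36 and 16.59 TPM in tips. The log2 difference was 1.12 ± 0.21 SE (limma adjusted p = 0.000258). Dynlrb2 was at 0, 1.545 and 7.56 TPM in organoids (lowest, median, highest) and listed at 0 in all 4 tips, and it was called higher (limma adjusted p = 0.00753), with 1 organoid also at 0. Rsph1 was not called (log2 difference -0.48 ± 0.25 SE, limma adjusted p = 0.112), but without the E11.5 tip, where it was listed at 0, it was called lower (log2 difference -0.79, limma adjusted p = 0.0061). Mcidas and Dnah5 did not pass the filter. Of the 5 genes tested, 4 were thus called, but 61.9% of all 16779 genes were called in this comparison, 21.7% higher and 40.2% lower, so the share is near the background.

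Tips therefore listed Tekt1 without Dynlrb2, unlike the 2C set, where both were high in the same libraries. Among listed genes, 60 of 101 were tested, and 27 were lower and 9 higher in organoids, beside 40.2% lower and 21.7% higher over all genes, so these counts are near the background too. Fam183b was listed at 0 in all 10 organoids, against 36.21, 34.09, 12.69 and 2.18 TPM in tips. Mns1 averaged 1.30 ± 0.52 TPM in organoids and 15.1 ± 5.11 TPM in tips (SD, n = 10 and 4, log2 difference -2.79, limma adjusted p = 2.95e-08), and Ccdc40 0.938 ± 0.631 and 7.92 ± 2.71 TPM (log2 difference -2.22). Ccno went the other way, at 6.24 ± 4.80 TPM in organoids and 1.01 ± 0.688 TPM in tips (log2 difference 1.64, limma adjusted p = 0.00848).

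Markers of other cells moved with this contrast. Mesenchymal markers were lower in organoids in 4 of 5, endothelial markers in 3 of 3 and neuroendocrine markers in the 2 of 7 that were tested. These 2 were Uchl1 (log2 difference -4.61) and Chga (-0.90). In the tips, 1 to 4 of the 7 neuroendocrine markers were at 1 TPM or more. The mesenchymal sum ran from 2.59 to 314.5 TPM in organoids and from 87.2 to 170.7 TPM in tips, and the neuroendocrine sum from 1.20 to 12.8 TPM in organoids and from 109.9 to 132.4 TPM in tips. Their part in the differences was not tested.

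Within the 10 organoids, the fitted change over the range of culture days and over the range of starting stages was called for 0 of the 5 tested genes. In all, 9.64% of 16779 genes were called for culture day and 0.0536% for starting stage. Unadjusted limma p-values of the 5 genes ran from 0.110 to 0.934. Of the 60 tested list genes, E2f4 alone was called, lower with culture day (log2 difference -0.61, limma adjusted p = 0.0151).

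Across the same organoids, genes were ranked by Pearson correlation of log2(TPM + 1) with the mean of the 7 genes. The 8 highest of 12152 were Impa1 (r = 0.956), Gtf2a1, Zfp93, A930024E05Rik, Mbd4, Znrd1, Zfp444 and Vipas39 (r = 0.898), as a description over 10 libraries of 1 table that differ in starting stage and culture time. Of the 50 highest, 0 were on the cilia lists, of which 31 genes could be ranked. Each of the 7 is part of that mean, with which r was 0.82 for Mcidas, 0.72 for Dynlrb2, 0.55 for Tppp3, 0.53 for Tekt1, 0.49 for Foxj1, 0.052 for Dnah5 and -0.50 for Rsph1.

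In the cut pieces, 0 of the 3 tested genes, Rsph1, Dynlrb2 and Tppp3, differed between up and down pieces, and 0 of 15017 genes (0.0%) were called by limma, with 663 at an unadjusted p under 0.05. Dynlrb2 was at 0 to 1.29 TPM in the 3 up pieces and at 0, 12.06 and 2.87 TPM in down-half, down-half-left and down-half-right. In down-half-left Tppp3 was also the highest of the 9 libraries at 115.67 TPM, while Foxj1 was listed at 0 there.

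Among the LO libraries, Foxj1 was at 0.08 TPM or less and Dynlrb2 at 0 except for 2.79 TPM at day 18. Tppp3 was at 91.15, 106.48 and 55.78 TPM at days 8, 11 and 18. In the library LO_day11_DCI it was at 16.86 TPM, against 106.48 TPM in LO_day11 (log2 difference -2.59). Tppp3 was the only eligible gene of the 7 and was past the size rule, where 24.2% of 11369 eligible genes were and 13.0% were lower. Between day 11 and day 8, and between day 18 and day 8, Tppp3 was again the only eligible gene and was not past the rule. Of all eligible genes, 5.25% of 11274 and 19.9% of 11514 differed. The other genes of the 7 were under 5 TPM in every LO library, so they could not be counted.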

How the data were processed

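Total RNA of mouse lung organoids and lung tip epithelium was sequenced on an Illumina NovaSeq X Plus, per the labels' protocols. The authors deposited 5 tables of TPM per gene. Bowtie2, RSEM and the mm10 genome are named in the submitters' processing notes, with no version. TPM keeps no depth, so no count test, interval or detection limit was used. In all, 40 libraries were matched to labels by name, and 1 column that matched no label was left out. Values were taken as log2(TPM + 1). The numbered groups, organoids and tips, and pieces were fitted with limma 3.58.1 (R 4.3.3, trended variances) over genes at 1 TPM or more in at least 2 libraries of the table. Benjamini-Hochberg adjustment covered all of them, with a threshold of 0.05, and the procedure was tested on simulated data. Culture day, starting stage and piece position had no replicated setting, so scatter around the fit stood in for replicates. The organoid and tip groups pooled stages and days. Single libraries were compared by size alone, a log2 difference of at least 1 with 5 TPM or more in the higher library, without p. The genes, marker lists and comparisons were chosen with earlier results of these data known. Beside the 7 genes, the text names up to 4 genes per list and comparison with the largest differences past the rule, and other names were chosen after their values were seen. Of 171 library pairs within tables, 0 were identical. Tables and motifs were read with Python 3.11.15 and pandas 2.3.3. The alternatives tried were another pseudocount, no filter, quantile and median-ratio scaling, another limit of the size rule, fits within 2 groups, the replicate number as a block, and leaving out each library.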

Additional observations from a re-analysis of the deposited data

How the results depend on the processing

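Of 573 values of the 7 ciliated cell genes under the alternatives, 547 kept their direction and call, 9 passed a threshold that they had missed, 17 changed sign and 0 lost a call. The 17 are of Dynlrb2 and Rsph1 in comparisons where neither was called under any setting, so no direction is given for them. ALL-VC Dynlrb2 was -0.090 with quantile normalization and -0.13 with median-ratio rescaling (0.00 without either). Leaving out 1 library at a time, Dynlrb2 ran from -0.75 (without ALL replicate 2) to 1.53 in ALL-FGF10, from -1.76 to 0.52 (without ALL replicate 1) in ALL-MTG, from -1.14 (without ALL replicate 2) to 1.14 (without ALL replicate 1) in ALL-VC, and from -0.064 to 1.21 for culture day, all on the log2 scale. Rsph1 ran from -0.70 to 0.51 (without ALL-MTG replicate 2) in ALL-MTG, from -0.12 (without ALL replicate 2) to 0.41 in ALL-VC, from -0.15 to 0.17 for culture day, and from -0.77 to 0.14 (without down-half-left) between up and down pieces. Of the 9 that passed a threshold, 8 came with the limit of the size rule at 1 TPM, namely Mcidas and Tekt1 in 2C+MTG and in ALL, Mcidas in 2C+VC, Rsph1 at LO day 11 against day 8, and Tekt1 and Dynlrb2 at LO day 18 against day 8. The other was Rsph1 in organoids against tips without the E11.5 tip. With the 1 TPM limit, the count of differing genes was 1480 for 2C+F10, 1714 for 2C+MTG, 2030 for 2C+VC, 2426 for ALL, 4163 for LO_day11_DCI, 1428 for LO day 11 against day 8 and 3629 for LO day 18 against day 8, where more genes were eligible. For ALL-FGF10 against ALL the 271 calls became 177 with a pseudocount of 0.1 TPM, 143 with the replicate number as a block and 166 in a fit of only those 2 groups. For ALL-MTG the 76 calls became 7 without a filter, 48 with the block and 11 in the fit of 2 groups. For ALL-VC the 119 calls became 27 without a filter, 190 with quantile normalization, 190 with median-ratio rescaling, 68 with the block and 51 in the fit of 2 groups. The cause of these shifts was not tested. For starting stage, 9 calls became 3 without a filter. Deviations of same-numbered replicates correlated between -0.07 and 0.114. The labels do not say whether the numbers pair the libraries, and a weak correlation over all genes cannot settle it.

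Leaving out 1 library at a time gave 9 (without ALL-FGF10 replicate 2) to 1149 (without ALL replicate 1) calls for ALL-FGF10, 18 (without ALL-FGF10 replicate 1) to 191 (without ALL-MTG replicate 2) for ALL-MTG, and 8 (without ALL-VC replicate 1) to 1309 (without ALL replicate 1) for ALL-VC. A group with 1 library left is assumed to vary like the other groups. In ALL-FGF10, leaving out ALL replicate 2, either ALL-VC replicate or either ALL-FGF10 replicate also moved the count by over 1.5 times, as did either ALL-VC, either ALL-FGF10 or either ALL-MTG replicate in ALL-MTG, and ALL replicate 2, either ALL-VC or either ALL-FGF10 replicate in ALL-VC. The range was 9563 to 10400 for organoids against tips, 430 (without the organoid from E10.5 after 32 days) to 1825 for culture day, 2 (without the organoid from E14 after 11 days) to 10 for starting stage, where leaving out the E12.5 tip, the E13.5 tip, the E10.5 organoid of day 11 or the E14 organoid of day 24 gave 5, and 0 to 1 (without down-half-right) for the pieces. None of these moved a call of the 7 genes other than Rsph1 above. The 2C and LO comparisons have 1 library a group, so no library could be left out, and the depth behind their values is unknown.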
